A study of Mus musculus with 8 samples.

Results

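The comparison described here is the Lmo2 vector against the empty vector in a pro-B cell line that cannot enter the T lineage. It comprises the 4 arrays, of 8 in the study, whose titles name the line transfected with Lmo2 or with empty vector, with 2 arrays in each group. All 4 were hybridised on 1 slide. Of the 39378 probes analysed, 22995 were tested, namely those that stood well above background on both Mock arrays, on both LMO2 arrays or on all 4. LMO2 is a LIM-domain protein that does not bind DNA itself. It bridges DNA-binding partners (TAL1 or LYL1 paired with E proteins, and GATA factors) through LDB1, and is active in blood stem and progenitor cells. Its expression normally ceases as thymocytes commit to the T lineage, and its misexpression in thymocytes is a cause of T-cell leukaemia.

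The line, called pro-B(−), was derived from fetal liver progenitors of Ebf1-deficient mice and kept on TD7, a thymic stromal cell line, with SCF, Flt3L and IL-7. Every group of the study, controls included, therefore lacks functional EBF1, the factor that commits progenitors to the B lineage. The cells were transduced with a lentiviral vector that carries an IRES and rat CD2 as a marker, either empty (pro-B(−)/Mock) or with the mouse Lmo2 cDNA (pro-B(−)/LMO2). The stromal cells, the presence of a Notch ligand and any sorting of rat CD2+ cells before RNA isolation are not given in the sources used here for these arrays. Each vector is represented by 1 transduced population as far as the sources say, so an effect of the vector and another difference between the populations cannot be told apart. The titles do not say whether replicates are cultures or labellings, and the p-values measure only the spread between these arrays. In bulk RNA, a change in the number of cells of a kind and a change of RNA per cell cannot be told apart either.

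Signals are given as log2 intensity relative to the 75th percentile of the array, so that 0 lies at the upper quartile, and are compared only within a probe. The share of probes well above background ran from 57.2% to 60.8% of an array. Replicate arrays correlated at r = 0.999, and their log2 differences had an SD of 0.161 (Mock) and 0.164 (LMO2), against an SD of 0.656 for the difference between the groups. With limma and an adjusted p (Benjamini-Hochberg) under 0.05, 14553 probes were called (63.3% of those tested), with 6427 (27.9%) higher and 8126 (35.3%) lower when Lmo2 was introduced. The median size of a called change was log2 0.46, and 64.2% of the called probes changed by less than 1.5-fold. For the 12937 named genes tested, each taken by its brightest probe, 66.8% were called, 30.7% higher and 36.1% lower, and every count below is to be read against these shares. Changes of 2-fold or more were less balanced, with 1069 genes higher (8.26%) and 368 lower (2.84%). Scaling to the array median moved the median change of the tested probes from −0.04 to −0.25 and the calls to 4089 higher and 12634 lower, so small changes are best read relative to that shift. The median change of genes by chromosome lay between −0.15 and 0.03.

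The haematopoietic markers Ptprc (CD45, −0.08), Coro1a (−0.03) and Vav1 (0.17) differed little between the groups, and that of Coro1a was 0.16 with quantile normalization. Cd48, another such marker, rose by 0.60, and its dimmer probe by 0.59. Of genes of early lymphoid progenitors, Flt3, Il7r, Vpreb1, Dntt and Rag1 were above background on all 4 arrays. Rag1 fell by 2.78, however, and its dimmer probe was not above background with Lmo2. Igll1 was not above background on every LMO2 array. Cd79a and Ms4a1, which need EBF1 or PAX5, were not well above background on any, and Pax5 was dim, between −5.87 and −5.13. Apart from Rag1 and Igll1 in LMO2 cells, these markers fit the label of an early pro-B line. The probe of Ebf1 itself, the gene these cells lack, was above background at 1.51 and 1.48 (Mock) and 1.12 and 1.14 (LMO2). Its position relative to the deleted part of the gene is not known here.

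**Figure D1:**
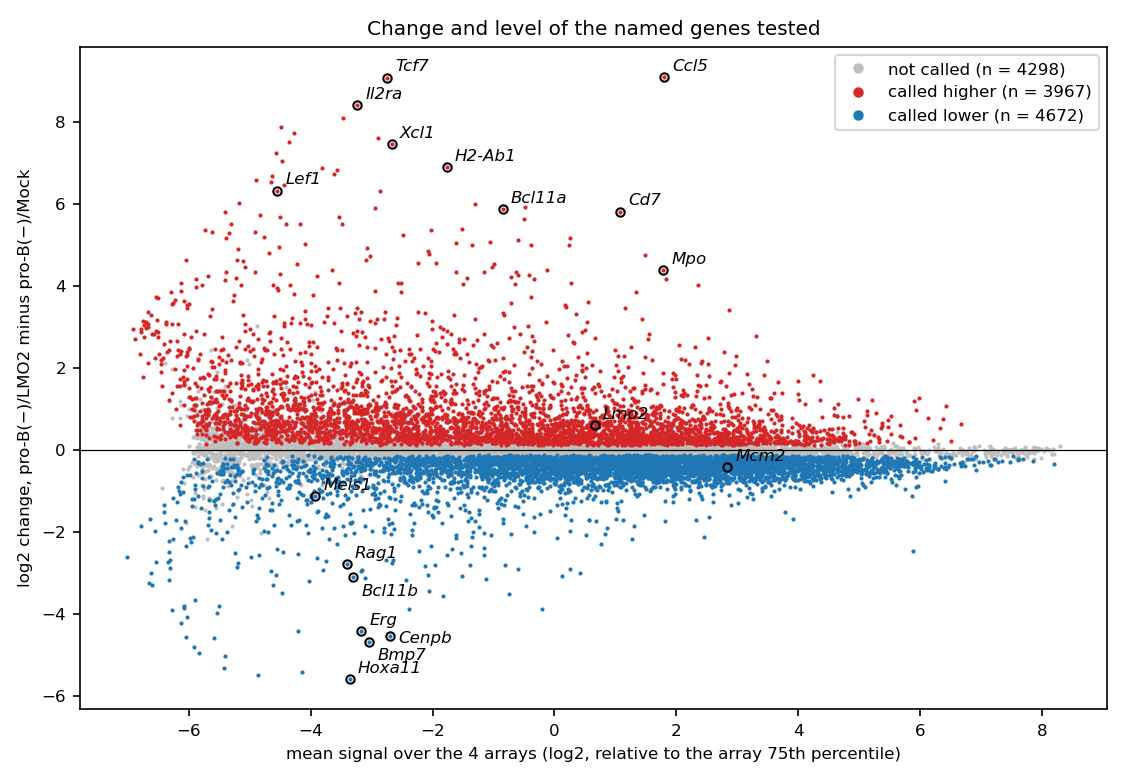
Log2 change (pro-B(−)/LMO2 minus pro-B(−)/Mock, vertical axis) against the mean log2 signal over the 4 arrays relative to the array 75th percentile (horizontal axis), 1 point for each of the 12937 named genes tested, red where called higher (3967), blue where called lower (4672) and grey otherwise. Changes over log2 4 were mostly rises, and Lmo2 itself lay at 0.61.

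Lmo2 was measured at 0.35 on both Mock arrays and at 0.99 and 0.93 on the LMO2 arrays. Both LMO2 arrays lay above both Mock arrays, with a log2 difference of 0.61 (SE 0.041, limma adjusted p = 0.0013), or 1.53-fold. Whether the probe detects the transcript of the vector is not known here, so the 1.53-fold rise is that of the probe alone. Among the partners of LMO2, the transcripts of the common scaffold moved little: Ldb1, the dimerising bridge protein, changed by −0.05 (adjusted p = 0.35), and the E protein genes Tcf3 and Tcf12 by −0.13 (adjusted p = 0.14) and −0.10 (adjusted p = 0.068). With quantile normalization the value of Ldb1 was 0.05. Lyl1, the bHLH partner closest to TAL1, had signals of 5.55 and 5.56 in Mock and 4.66 and 4.65 in LMO2 cells, and fell by 0.90. Tal1 rose by 0.30, though not with median scaling (0.09, adjusted p = 0.09). The co-repressor Cbfa2t3 (ETO2) rose from 1.66 and 1.69 to 2.95 and 3.02, or by 1.31. The genes for the LIM-only paralogue Lmo4, the E protein Tcf4 and the E-protein inhibitors Id1 and Id2 also rose, by 0.98, 0.75, 0.79 and 1.04. Lmo1, the closest paralogue, was read at −3.69 and −3.93 in Mock and at −7.67 and −5.47 in LMO2 cells (fitted change −2.76, adjusted p = 0.049), a call that was lost without either Mock replicate (adjusted p = 0.16 and 0.14). It was well above background on only 1 of the 2 LMO2 arrays, so the size of this change is uncertain. Of 17 genes tested on the list for the LMO2 complex, 10 were called higher and 3 lower, with a median of 0.20 against −0.03 for all genes. Gata1, Gata2 and Ldb2 stayed at background on all 4 arrays.

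The T-lineage transcription factors split in both directions. Of 21 tested, 9 were called higher and 8 lower, with a median of 0.07. The largest rise was that of Tcf7, which encodes TCF1, the factor that acts downstream of Notch in the earliest thymic progenitors. Its signal was 1.8 and 1.79 on the LMO2 arrays, whereas neither Mock array (−7.61 and −6.96) was well above background. Where a group was not above background, the fold is given as a bound, in which each dim array counts at its own reading or at the weakest reading it held well above background, whichever is higher, and the bright group's mean is set against the mean of these. Tcf7 was at least 238-fold higher on this basis (adjusted p = 0.00027), and its dimmer probe at least 40.1-fold. An adjusted p printed beside a bound is the limma value for the fitted change, which uses the readings not above background. The bound itself was not tested, and such probes passed the filter through the bright group alone. The nearest tested gene on one side, Skp1, changed by 0.43 and that on the other, Vdac1, by −0.23. Neighbours and flanking genes are here always the nearest among the named genes tested, with untested genes passed over. Lef1, the close relative of Tcf7, was not above background with the empty vector (−8.30 and −7.12) and stood at −1.35 and −1.43 with Lmo2, at least 26.1-fold higher (adjusted p = 0.0014). Rora, Ahr, Tox and Runx3 rose by 1.69, 1.30, 1.09 and 1.02, with Rora above background on 1 of the 2 Mock arrays.

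Bcl11a, which encodes a zinc finger factor needed by lymphoid progenitors, was read at −3.76 and −3.81 with the empty vector and at 2.10 and 2.06 with Lmo2. The groups were far apart, by log2 5.87 (SE 0.040, adjusted p = 9.7e-05), or 58.4-fold, while its neighbours Papolg and Fancl changed by −0.14 and −0.47. The 250 bases upstream of its RefSeq start (GRCm38.p6, chr11:24080445-24080694, plus strand) are shown because LMO2 complexes commonly contain bHLH factors that bind E boxes. The capitals mark the 1 match to the E box letters CANNTG, with its first base at −186 from the start.

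Bcl11a promoter: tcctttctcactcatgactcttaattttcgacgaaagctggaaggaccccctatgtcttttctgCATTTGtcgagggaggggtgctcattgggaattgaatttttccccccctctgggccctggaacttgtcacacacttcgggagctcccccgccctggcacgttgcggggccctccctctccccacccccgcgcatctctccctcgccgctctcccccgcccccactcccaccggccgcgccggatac

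The E box letters are in 66.2% of the 32851 mouse promoters of the same length, and in 58.5% of those of tested genes, so a match is the rule for a promoter. The window holds 16 CpG, which is at the 75th percentile of these promoters.

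Bcl11b, the paralogue of Bcl11a that is switched on at T-lineage commitment, moved the other way. It was read at −1.78 and −1.73 in Mock cells and at −5.07 and −4.63 in LMO2 cells. It fell by 3.09 (SE 0.17, adjusted p = 0.00093), and its dimmer probe was lower by at least 7.61-fold. Ets2 fell from 1.56 and 1.53 to −0.58 and −0.47, or by 2.07, and Gfi1, Myb and Ets1 fell by 0.57, 0.48 and 0.43. Gata3, an early T-lineage factor, rose by 0.58, and Ikzf1 changed by 0.04 (adjusted p = 0.35). Runx1 fell by 0.17, a call that was lost under quantile normalization (adjusted p = 0.1) and without any 1 of the arrays (adjusted p from 0.07 to 0.08). Tcf7 and Lef1 thus rose while Bcl11b fell, and Ets2, Gfi1, Myb and Ets1 fell as Bcl11b did.

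**Figure D2:**
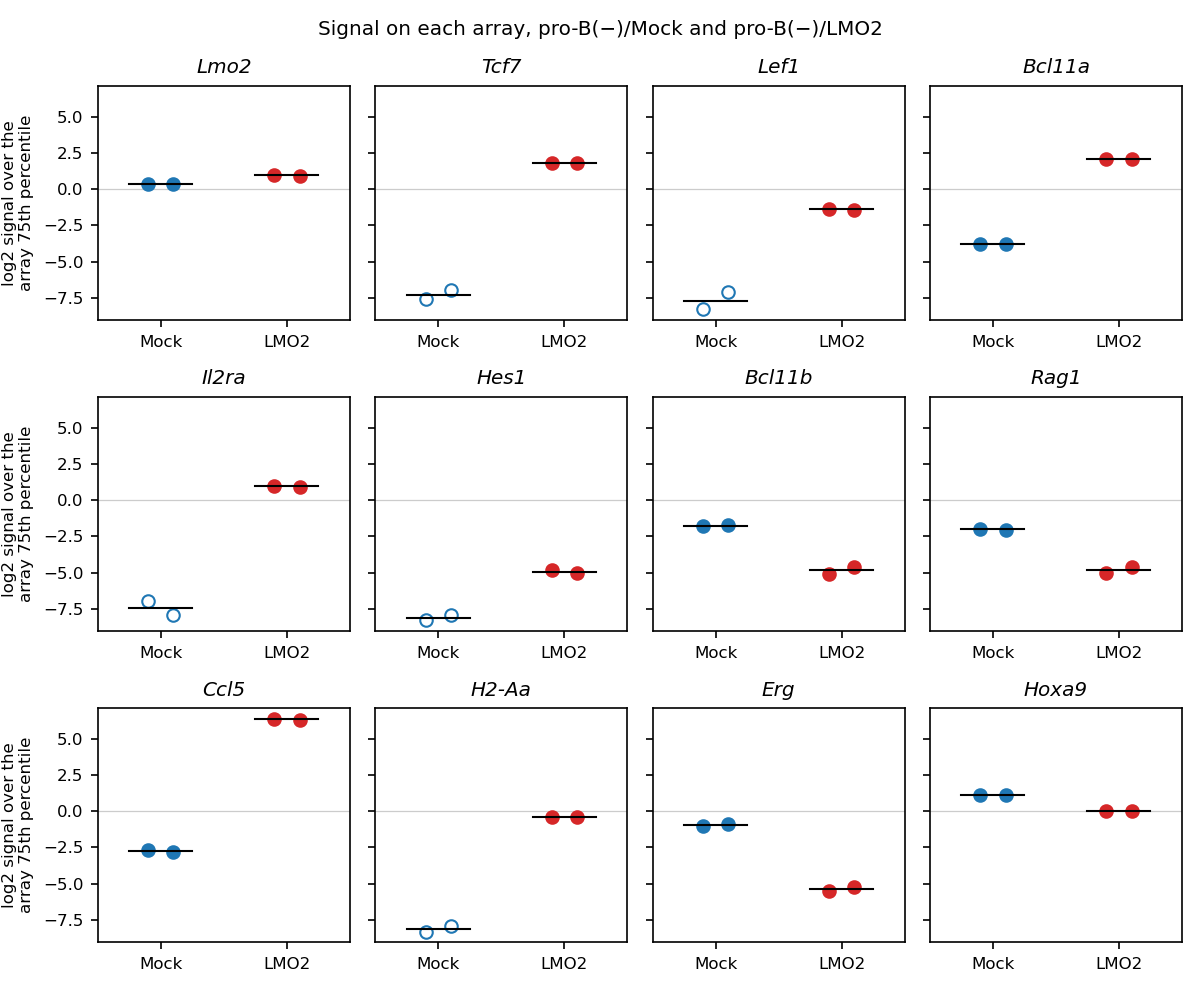
Log2 signal relative to the array 75th percentile on each array (vertical axis) for 12 genes in pro-B(−)/Mock (2 arrays, blue) and pro-B(−)/LMO2 (2 arrays, red). Filled points are well above background, open points are not, and bars are group means. In all 12 genes, which were chosen for display, the groups did not overlap. Of all probes tested, 63.3% were called. The arrays of a group lay furthest apart for Lef1 and Il2ra in Mock, where neither gene was above background.

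Genes of T-cell receptor signalling also moved both ways, with more rises than falls. Of 25 tested, 16 were called higher and 6 lower, with a median of 0.52. Il2ra, the CD25 chain of the IL-2 receptor and the surface marker of DN2 and DN3 thymocytes, was not above background on the Mock arrays (−6.93 and −7.95) and was at 1.01 and 0.91 on the LMO2 arrays. The rise was at least 134-fold (adjusted p = 0.00069), while the flanking genes Rbm17 and Il15ra changed by −0.27 and −0.02. A second, dimmer probe of Il15ra was not above background on the Mock arrays and was at least 2.04-fold higher with Lmo2. Cd7, an early lymphoid surface protein, rose from −1.84 and −1.81 to 4.01 and 3.97 (log2 5.81, SE 0.040, adjusted p = 9.7e-05). The adaptor gene Lcp2 (SLP-76) rose by at least 6.84-fold and Cd3g by at least 4.59-fold, whereas Cd3e rose by 0.17 and Ptcra, the pre-TCR chain, changed by 0.29 (adjusted p = 0.31). The recombinase genes fell. Rag1 went from −2.0 and −2.05 to −5.02 and −4.58, a fall by 2.78 (SE 0.17, adjusted p = 0.0012), and its dimmer probe was lower by at least 1.3-fold. Rag2 went from −0.31 on both arrays to −2.43 and −2.40, a fall by 2.11. Both Rag genes were lower on each LMO2 array than on either Mock array, beside 35.3% of all tested probes called lower. The surface glycoprotein genes Cd5 and Thy1 fell by 1.77 and 0.86.

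Notch receptors and their targets were examined next, since Notch signalling starts the T-cell programme. Of 20 genes tested, 12 were called higher and 1 lower, with a median of 0.21. Hes1, a direct Notch target, was not above background with the empty vector (−8.29 and −7.91) and reached −4.83 and −5.05 with Lmo2, at least 2.23-fold higher (adjusted p = 0.00089). The Deltex genes Dtx4 and Dtx1 rose by 2.41 and 1.31, and Lfng, which modifies the receptors, by 0.82. Of the receptors, Notch2 rose by 1.02 and Notch3 by 0.25, the latter not with median (0.04) or quantile scaling (0.09). Notch1 changed by 0.03 (adjusted p = 0.84), with overlapping groups, and its sign turned with the scaling. Hes5 changed by −0.02 (adjusted p = 0.74), and Hey1, Hey2 and the ligands Dll1, Dll4 and Jag1 were not well above background on any array. Notch4 changed by −0.16 (adjusted p = 0.06), and Jag2 fell by 0.75.

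The B-lineage and pre-BCR list also moved both ways, with 11 of 21 called higher, 7 lower and a median of 0.35. Dntt, which encodes the DNA polymerase that adds bases at antigen receptor junctions, rose from 0.34 and 0.37 to 4.39 and 4.36. This was a log2 change of 4.02 (SE 0.039, adjusted p = 9.7e-05), opposite to the Rag genes. Ly6d, a marker of B-lineage specification, rose by 2.77, Spib by 2.40, the adaptor Blnk by 2.11 and the co-activator Pou2af1 by at least 4.08-fold. Vpreb1 and Igll1, the surrogate light chain genes, fell by 0.51 and 1.31, and Cd24a fell by 2.18. Igll1 was above background on 1 of the 2 LMO2 arrays, and its call was lost without Mock replicate 1 (adjusted p = 0.064).

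Genes of NK and cytotoxic cells came next. Of 21 tested, 17 were called higher and 2 lower, with a median of 2.19. Ccl5 (RANTES) was read at −2.70 and −2.81 with the empty vector and at 6.38 and 6.29 with Lmo2, a rise of log2 9.09 (SE 0.061, adjusted p = 9.7e-05). This was the largest fitted rise among genes above background on all 4 arrays. Xcl1 (lymphotactin) was at 1.05 and 1.06 with Lmo2 and not above background with the empty vector (−6.30 and −6.49), at least 142-fold higher. Klrd1 (CD94) rose from −2.39 and −2.28 to 2.82 and 2.85, or by 5.17. Fasl, Ifng, Cd160 and Tbx21 (T-bet) were at least 11.4-fold, 9.54-fold, 8.26-fold and 7.43-fold higher, and each was not above background with the empty vector. The cytotoxic granule genes were mixed, since Gzma and Nkg7 rose by 2.01 and 2.56 while Prf1, the pore-forming perforin, fell by 1.01. Klrk1, Klrc1, Ncr1 and Eomes, which define mature NK cells, stayed at background on all 4 arrays. Klrb1c (NK1.1), another NK receptor gene, was dim but above background on all 4 arrays and rose from −5.16 and −5.45 to −3.80 and −3.58, or by 1.61 (adjusted p = 0.0023). The list was thus not uniform, with some NK receptor genes at background and others higher.

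The chemokines and chemokine receptors followed, with 18 of 25 called higher, 3 lower and a median of 1.96. Beside Ccl5 and Xcl1, Ccl4 rose from −4.26 and −4.15 to 1.21 and 1.14 (log2 5.38), Ccl3 rose by 2.82 and Ccl6 was at least 40.8-fold higher. Ccr6 rose by 3.28, whereas Ccr9, the thymus homing receptor, fell by 0.55 and Cxcr4 changed by −0.12 (adjusted p = 0.059). Of 33 cytokine receptor genes, 24 were called higher and 3 lower, with a median of 0.75. The interleukin-1 decoy receptor Il1r2 rose from −3.23 and −3.29 to 1.29 and 1.27, or by 4.54, and the signalling receptor Il1r1, above background on 1 of the 2 Mock arrays, by 3.79. Il2rb, Il10ra and Il6ra rose by 2.29, 2.25 and 2.20. Il7r, the receptor these cells depend on, changed by −0.18 (adjusted p = 0.095), and was called lower with median scaling (−0.39, adjusted p = 0.011).

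MHC class II genes rose together with the invariant chain. Of 17 genes for class II and antigen presentation, 13 were called higher and 1 lower, with a median of 1.13. H2-Aa was at −0.42 and −0.41 in LMO2 cells and not above background in Mock cells (−8.32 and −7.95), at least 51.2-fold higher (adjusted p = 0.00017). H2-Ab1 rose from −5.32 and −5.11 to 1.71 and 1.64 (log2 6.89) and H2-Eb1 from −3.45 and −3.18 to 2.34 and 2.28 (log2 5.63). Both chains of the classical class II molecules, α and β, were thus separated widely between the groups. Cd74, the invariant chain, rose by 4.76, and H2-DMb2, a peptide-loading subunit, was at least 11.3-fold higher. Ciita, the class II transactivator, was dim on every array (−5.83, −6.14, −5.33 and −5.35), above background on 1 of the 2 Mock arrays, and rose by only 0.65 (adjusted p = 0.014), a call that was lost without either LMO2 replicate (adjusted p = 0.06 and 0.056). Rfx5, a subunit of the factor that binds class II promoters, changed by 0.35 (adjusted p = 0.051). The costimulatory gene Cd86 fell by 1.6.

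Class II promoters share the Y box, which NF-Y binds, and 2 are shown for that reason. They are the 250 bases upstream of the RefSeq start of H2-Aa (chr17:34287824-34288073, minus strand) and of H2-Eb1 (chr17:34305617-34305866, plus strand), both of GRCm38.p6. The capitals mark the Y box core TGATTGG, searched on both strands, with its first base at −50 and −61.

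H2-Aa promoter: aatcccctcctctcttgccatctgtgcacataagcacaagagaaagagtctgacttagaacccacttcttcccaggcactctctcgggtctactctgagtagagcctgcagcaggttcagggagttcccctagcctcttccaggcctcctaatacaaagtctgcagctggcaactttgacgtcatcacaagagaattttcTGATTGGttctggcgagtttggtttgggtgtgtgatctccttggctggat
H2-Eb1 promoter: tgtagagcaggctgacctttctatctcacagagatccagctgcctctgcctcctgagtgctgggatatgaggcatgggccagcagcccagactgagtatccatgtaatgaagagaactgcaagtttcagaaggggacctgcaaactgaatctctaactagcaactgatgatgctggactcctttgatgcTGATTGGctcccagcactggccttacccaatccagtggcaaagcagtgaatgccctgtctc

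Of the 10 class II list genes called higher that have a promoter entry, 6 hold the core. It is in 8.38% of the 27025 genes with an entry, and in 11% of the 10371 of these that were tested. The genes are H2-Aa, H2-DMb1, H2-DMb2, H2-Eb1, H2-Oa and H2-Ob. Among all 12 tested list genes with an entry, 8 hold it, so the core was not limited to the genes that rose.

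Interferon-stimulated genes were higher in 15 of 19 cases and lower in 1, with a median of 2.24. Oas2, an antiviral oligoadenylate synthetase, rose from −3.36 and −3.68 to 0.58 and 0.45, or by 4.04 (SE 0.13, adjusted p = 0.00039). Gbp2, a guanylate-binding GTPase, rose by 4.39, the ISG15 protease Usp18 by 3.26 and the transcription factor Irf7 by 2.47. Isg15, the ubiquitin-like modifier, rose from −1.89 and −2.04 to 0.86 and 0.85 (log2 2.82). Ifit2, above background on 1 of the 2 LMO2 arrays, fell by 0.89, though not without Mock replicate 1 (adjusted p = 0.052). The promoter of Isg15 (GRCm38.p6, chr4:156200819-156201068, minus strand) is shown since its letters carry the element through which interferon-activated factors act. The capitals mark 3 overlapping matches to the ISRE core GAAANNGAA, searched on both strands, with first bases at −78, −72 and −66.

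Isg15 promoter: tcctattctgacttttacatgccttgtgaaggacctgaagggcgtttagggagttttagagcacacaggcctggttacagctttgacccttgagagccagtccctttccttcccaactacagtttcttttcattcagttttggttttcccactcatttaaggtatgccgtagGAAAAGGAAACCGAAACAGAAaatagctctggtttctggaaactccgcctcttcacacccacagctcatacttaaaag

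The core is in 8.18% of genes with a promoter entry, and in 7.5% of the tested genes with one. Of the 11 interferon list genes called higher with an entry, 6 hold it (Gbp2, Gbp3, Isg15, Oas1a, Oas3 and Rsad2), as do 9 of the 15 tested. Of the tested holders, Bst2, Ifih1 and Stat2 were not called, with changes of −0.08, 0.15 and 0.56.

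Gene families that neighbour these lists were picked by symbol after their values were seen, and are given as counts without a test. All 9 guanylate-binding protein genes tested were called higher (median 2.15), led by Gbp6 at 4.99, and so were all 8 Gimap genes (median 1.96), which encode GTPases of lymphocyte survival, led by Gimap8 at 4.06. Of 14 MHC class I genes 10 were called higher (median 1.26), and their partner B2m rose by 0.83. Interferon regulatory factor genes were called higher in 8 of 9 cases (median 0.96). Probes of such families, of Pilra, Lilrb4a, Psg17 and of the Bcl2a1 copies may share signal with near-identical genes, so their single values are uncertain.

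The myeloid lists rose in part. Of 26 monocyte and macrophage genes, 19 were called higher and 3 lower, with a median of 0.85. Lyz2, the lysozyme of macrophages, was at least 10.5-fold higher, Lyz1 rose by 4.74, Lilrb4a by 5.36, the sialic acid receptor Cd33 by 3.46 and the myeloid factor Cebpa by 1.74. Spi1, which encodes PU.1, rose by 0.35. Adgre1 (F4/80) fell from −0.21 and −0.20 to −1.39 and −1.45, or by 1.21, Mrc1 fell by 0.92, and C1qa and C1qc stayed at background on all 4 arrays. Of 8 neutrophil granule genes tested, 4 were called higher and 2 lower, with a median of 0.61. Mpo, the myeloperoxidase of promyelocytes, rose from −0.43 and −0.40 to 4.0 and 3.94 (log2 4.38, SE 0.043, adjusted p = 9.7e-05) and Prtn3 by 2.78. Ctsg, a protease of the same granules, was at −5.55 and −4.20 with the empty vector and below background with Lmo2, at least 2.2-fold lower (adjusted p = 0.024), though not without either LMO2 replicate (adjusted p = 0.091 and 0.062). The late granule genes S100a8, S100a9, Ltf, Mmp8 and Mmp9 were not well above background on any array. On the erythroid and megakaryocyte list, 9 of 12 genes were called higher and 2 lower (median 0.62). Itga2b (CD41) was at least 6.24-fold higher, while Gata1, Alas2 and Pf4 were not above background.

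Stem and progenitor genes divided evenly. Of 22 tested, 11 were called higher and 11 lower, with a median of 0.01. Tgm2 rose from −2.42 and −2.61 to 0.78 and 0.86 (log2 3.34), Ly6a (Sca-1) by 1.87, Kit, the SCF receptor, by 1.55, Hmga2 by 1.21 and Hhex by 0.86. Erg, an ETS factor of stem cells, fell from −1.01 and −0.91 to −5.50 and −5.26, by 4.42 (SE 0.10, adjusted p = 0.00023). Of its nearest tested neighbours, Ets2 fell by 2.07 and Kcnj15 changed by −0.64 (adjusted p = 0.37). The next tested genes out, Psmg1 and Kcnj6, fell by 0.96 and 0.80. Hoxa9 went from 1.1 and 1.14 to 0.04 and 0.01, a fall by 1.09, and Hoxa10 and the HOX cofactor Meis1 fell by 1.58 and 1.13. Taken after the values were seen, the Hoxa cluster had 8 of 9 tested genes called lower and none higher, with a median of −1.58. Hoxa11 fell from −0.56 and −0.58 to −6.29 and −6.00 (fitted change −5.58, adjusted p = 0.00019), but was well above background on only 1 of the 2 LMO2 arrays, so the size of its fall is uncertain. The antisense transcript Hoxa11os, above background on all 4 arrays, fell by 3.56. Whether the probes of Hoxa11 and Hoxa11os tell the opposite strands apart was not tested.

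**Figure D3:**
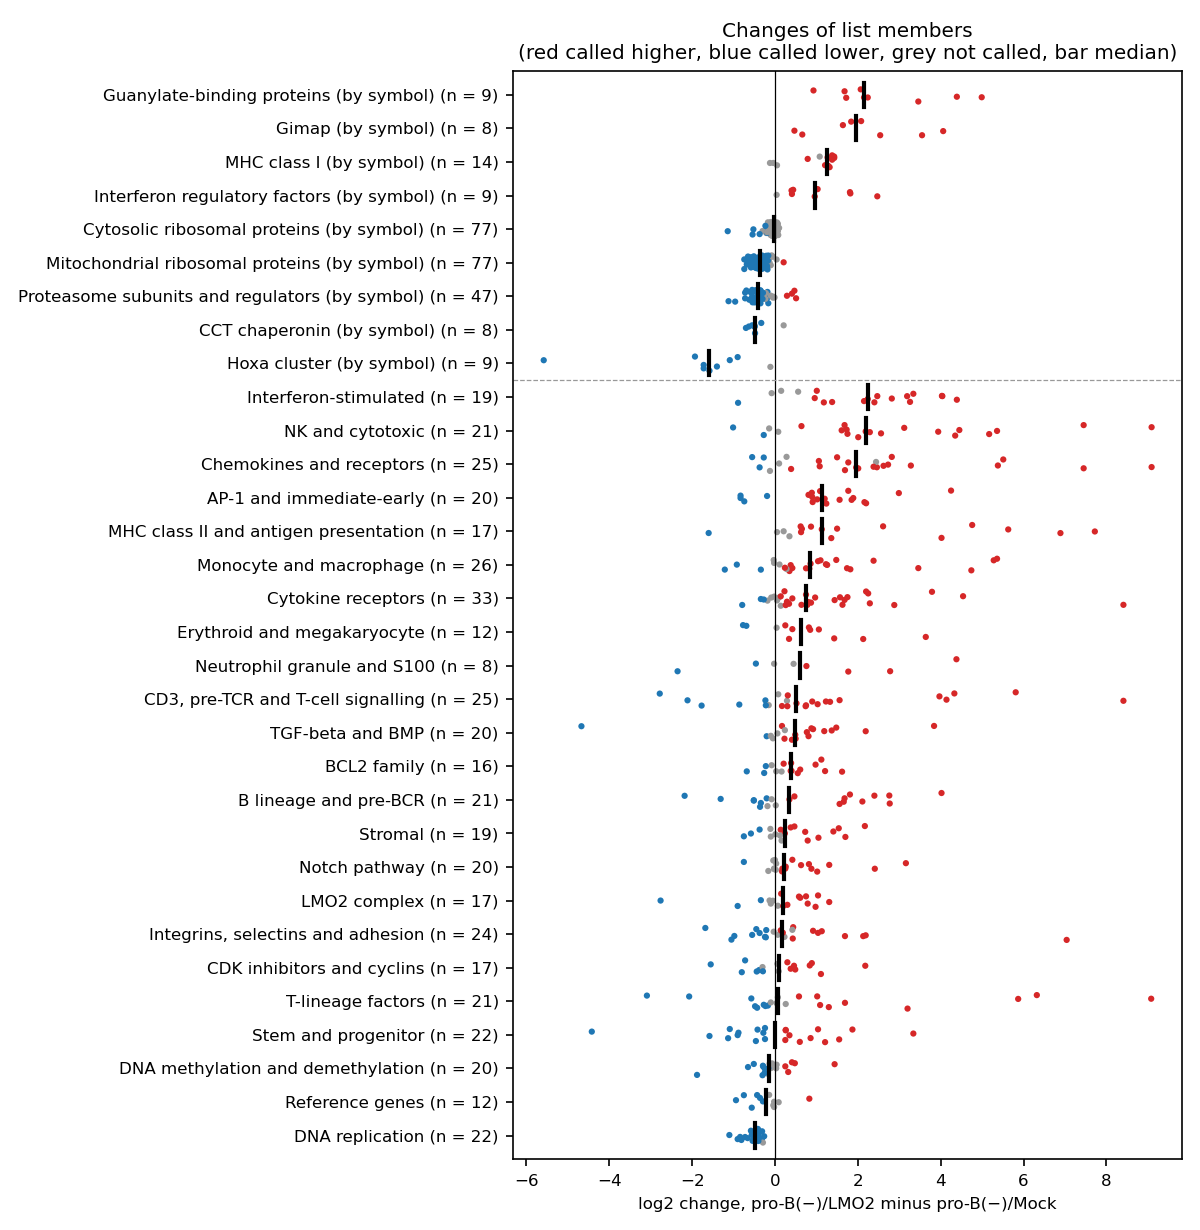
Log2 change (pro-B(−)/LMO2 minus pro-B(−)/Mock, horizontal axis) of each tested member of 9 families taken by symbol (above the dashed line) and 23 gene lists (below it), red where called higher, blue where called lower, grey otherwise, with a bar at the median and n the members tested. Interferon-stimulated, NK and chemokine genes had the highest list medians (2.24, 2.19 and 1.96), and DNA replication the lowest (−0.48).

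Growth and survival genes changed by smaller amounts. None of 22 DNA replication genes was called higher and 21 were called lower, with a median of −0.48. Gins2, a subunit of the replicative helicase complex, went from 1.56 and 1.53 to 0.66 and 0.64, a fall by 0.90, Rrm1 of ribonucleotide reductase fell by 0.84 and the helicase gene Mcm2 by 0.41. Of 17 CDK inhibitor and cyclin genes, 8 were called higher and 6 lower (median 0.09). Ccnd1 (cyclin D1) rose from −1.40 and −1.37 to 0.76 and 0.83, or by 2.18, Rb1 rose by 1.11, and Cdkn2a, which encodes p16 and p19ARF, fell by 1.55. The mitotic cyclins Ccna2 and Ccnb1 fell by 0.80 and 0.72. The BCL2 family had 10 of 16 genes called higher and 3 lower (median 0.39). The list holds genes for survival and for death: Bcl2 rose by 0.98 and Bcl2l1 by 0.55, but so did the death-promoting Pmaip1 (NOXA), by 1.62, while Bid fell by 0.68. Bcl2a1d, a survival gene that was not on the list, was at least 129-fold higher.

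Housekeeping machineries fell slightly. Picked after their values were seen, 37 of 47 proteasome genes, 69 of 77 mitochondrial ribosomal protein genes and 7 of 8 CCT chaperonin genes were called lower, with medians of −0.40, −0.37 and −0.49, and none of the 3 medians changed sign relative to all genes under another scaling. The 4 proteasome genes called higher were Psmb8 (0.47), Psmb9 (0.41), Psmb10 (0.29) and Psme1 (0.51). Psmb8, Psmb9 and Psmb10 encode the immunoproteasome subunits and Psme1 a subunit of its activator, which interferon is known to induce. Of 77 cytosolic ribosomal protein genes, 7 were called lower and none higher, but 65 were called lower with median scaling and 8 higher with quantile normalization. On the list of 12 reference genes, 1 was called higher and 6 lower (median −0.21), with Actb at 0.09 (adjusted p = 0.11), Gapdh at −0.14 (adjusted p = 0.073), Hprt lower by 0.75 and Pgk1 by 0.94.

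Signalling genes rose on balance. Of 20 AP-1 and immediate-early genes, 16 were called higher and 4 lower, with a median of 1.14. Jun rose from 0.58 and 0.41 to 2.75 and 2.65, or by 2.20, the orphan receptor Nr4a1 by 2.16, Ier3 by 2.99, and Atf3 was at least 5.84-fold higher. All 4 genes called lower, Dusp2, Dusp4, Dusp6 and Spry1, encode feedback inhibitors of MAP kinase signalling, but so do Dusp1 and Dusp5, which rose by 1.02 and 1.24. Of 20 TGF-β and BMP genes, 14 were called higher and 2 lower (median 0.49). The ligand Tgfb3 rose from −0.57 and −0.59 to 3.25 and 3.26 (log2 3.84), whereas the ligand Bmp7 fell from −0.70 and −0.71 to −5.52 and −5.23, or by 4.67 (SE 0.11, adjusted p = 0.00024). Of 24 adhesion genes, 11 were called higher and 9 lower (median 0.17). The LFA-1 chain Itgal and the gut homing chain Itgb7 rose by 2.19 and 1.69, and Cd81 fell by 1.68. Of 20 DNA methylation genes, 5 were called higher and 9 lower (median −0.14). Dnmt1 and Dnmt3b fell by 0.28 and 0.30, Dnmt3a rose by 0.41, Gadd45g rose by 1.44, and Uhrf2, which binds hydroxymethylated DNA, fell from −0.35 and −0.26 to −2.26 and −2.11, or by 1.88.

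Beyond the lists, the rule for the largest changes named further genes. Among rises, the adenosine receptor Adora3 went from −4.35 and −4.27 to 1.71 and 1.67, and the secreted pseudokinase Fam20a from −3.44 and −3.45 to 2.47 and 2.48, by 6.0 and 5.92. The ubiquitin ligase Rnf43, an inhibitor of Wnt receptors, rose by 5.0, the thromboxane synthase gene Tbxas1 by 5.23, the AP-1 family factor Batf3 by 5.05 and Ctnnd2 by 5.13. Jaml, Psg17, Ifitm6 and Pilra were not above background with the empty vector and at least 102-fold, 61.5-fold, 57.2-fold and 52.7-fold higher with Lmo2. Slc5a9, also not above background with the empty vector, rose by a fitted 59.1-fold. Its Mock readings lay above the weakest readings that serve for a bound, so its bound equals the fitted fold. Among falls, the centromere protein gene Cenpb went from −0.41 and −0.44 to −4.82 and −5.10, or by 4.54, while the flanking Spef1 fell by 1.32 and Cdc25b by 0.41. Hnrnpll, which encodes a splicing factor of CD45 RNA, went from 1.71 and 1.75 to −2.16 and −2.15, a fall by 3.88. Igf1 fell by 3.52, Frmd5 by 3.44, Gli1, the Hedgehog target and effector, by 3.15, Mfsd13a by 3.18, Ninl by 3.17, Armcx6 by 3.13, the germ cell helicase Ddx4 by 3.07 and Fsip2l by 3.06. B4galt4, Syce2 and Gpr119 were not above background with Lmo2 and were at least 24.0-fold, 16.2-fold and 14.9-fold lower. Unc5a, Zfp286, Reep1, Akr1c12, Pdlim5, Ect2l and Tnik were lower by at least 5.67-fold to 9.76-fold. A second, dimmer probe of Zfp286 changed by −0.18.

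Stromal RNA could enter such cultures, and the stromal list was therefore read beside the results. Of 19 genes tested, 11 were called higher and 3 lower (median 0.24). The mean log2 signal of the list was −1.14 and −1.15 on the Mock arrays and −0.65 and −0.69 on the LMO2 arrays. Col1a1 and Col1a2 changed by 0.24 and 0.16 (the latter not called), Pdgfra by 0.01, and Dcn and Lum were not well above background on any array. Thbs1, and the actin-associated Tagln and Acta2, rose by 2.17, 1.70 and 1.54. The part of stromal RNA in the other results was not tested.

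The effect of Lmo2 was set against the difference between pro-B(+) cells, the line that can enter the T lineage and was kept on OP9 stromal cells, and untransduced pro-B(−) cells (2 arrays each, on another slide). The question was which genes the vector moved by the same amount as the parental lines differ. In a fit of all 8 arrays, the 2 differences themselves differed for 8054 of 13714 named genes (58.7%), so equality was not the rule. Some of the largest changes did not differ between the comparisons beyond the spread: for Ccl4 the Lmo2 effect exceeded the parental difference of 5.16 by 0.22 (adjusted p = 0.11), for Ctnnd2 that of 5.0 by 0.13 (adjusted p = 0.43), and for Gli1 the values were −3.15 and −2.87 (adjusted p = 0.21). The smaller change of Gata3 exceeded its parental difference of 0.47 by 0.11 (adjusted p = 0.35). Some rises fell short of the parental difference. Hmga2 rose by 1.21 against 6.28 (difference −5.08, limma adjusted p = 1.6e-05) and H2-Eb1 by 5.63 against 7.68 (difference −2.05). The probe of Lmo2 itself rose by 0.61 against 1.46 (difference −0.85, limma adjusted p = 0.0001). Other genes rose further with Lmo2. The parental difference of Ccl5 was 3.02 and its Lmo2 effect 9.09 (difference 6.07, adjusted p = 5.8e-06), and Fam20a and Rnf43 exceeded the parental difference by 4.22 and 3.63. The fitted values of Tcf7 (9.08 and 4.74), Lef1 (6.32 and 1.44) and Il2ra (8.41 and 3.10) also differed, but they rest on signals under the background of the control group.

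Several genes moved in opposite ways. Dntt rose by 4.02 with Lmo2 against a parental difference of −2.92 (difference 6.94, adjusted p = 3.1e-06). The IL-18 receptor gene Il18r1 rose by 1.68 against a parental difference of −2.93. Bcl2 rose by 0.98 against a parental difference of −0.66 (difference 1.64, limma adjusted p = 1.1e-05). Meis1 had a parental difference of 5.75 and fell by 1.13 with Lmo2 (difference −6.88, adjusted p = 4.9e-06), Adgre1 one of 2.65 against −1.21, and Cd86 one of 1.48 against −1.6. Of the large falls, Cenpb and Hnrnpll had parental differences of 0.64 and 0.26, and Syce2 and Bmp7 of 4.06 and 1.23, so these falls had no counterpart between the parental lines. Other large falls had a parental difference in the same direction. Lmo2 effects and parental differences were −3.56 and −3.81 for Hoxa11os, −3.44 and −3.91 for Frmd5, and −3.07 and −3.64 for Ddx4. They were −3.06 and −2.27 for Fsip2l, −3.52 and −2.25 for Igf1, and −4.42 and −1.32 for Erg. Hoxa11 had a parental difference of −3.95, and its fitted Lmo2 effect (−5.58) rests in part on a signal not above background.

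**Figure D4:**
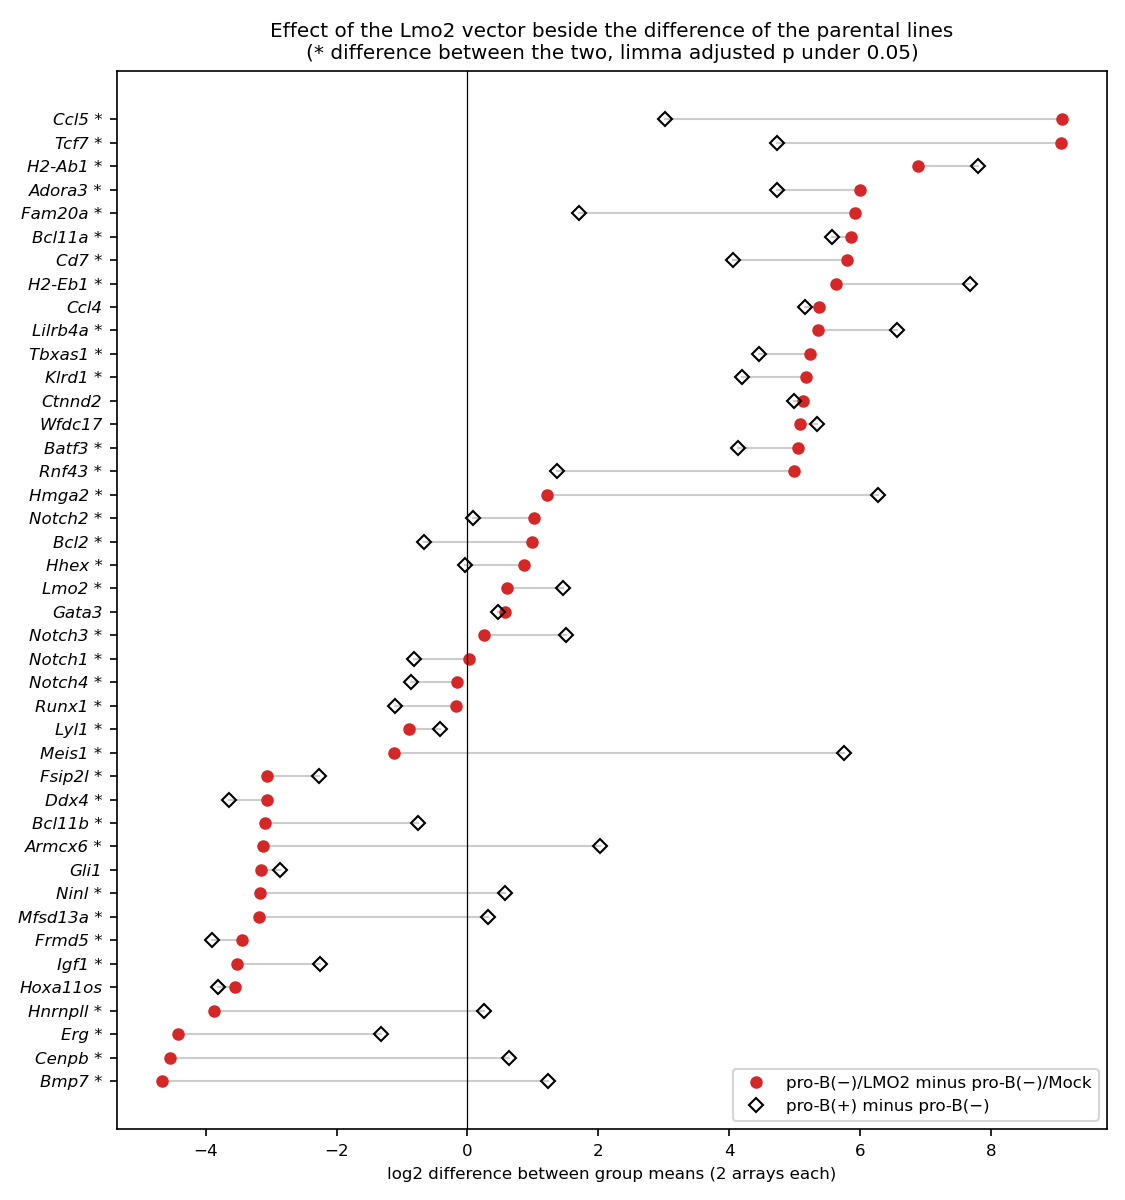
Log2 difference between group means (horizontal axis, 2 arrays per group) for genes named by the study or by the size of their change, as the effect of the Lmo2 vector (red circles) and as pro-B(+) minus pro-B(−) (open diamonds), with an asterisk where the 2 differ (limma adjusted p under 0.05). Ccl4, Ctnnd2, Wfdc17, Gata3, Gli1 and Hoxa11os have no asterisk, and Meis1, Bmp7, Cenpb and Armcx6 lie on opposite sides of 0.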

How the data were processed

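Total RNA was labelled with Cy3 and hybridised to whole mouse genome arrays (Agilent, 1 colour). The scanner intensity was deposited as written by Agilent Feature Extraction 11.5.1.1, per the file headers, already background-subtracted and detrended. The authors also deposited log2 values after 75th percentile normalization in GeneSpring GX 12, which were, on each array, the log2 scanner intensity shifted by a constant, and were used as an alternative. Groups and replicate numbers came from the titles.

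Control and outlier spots were left out, spots of a probe averaged, and each value taken as log2 intensity minus the array's 75th percentile. The 75th percentile of the intensity was 698 to 707 (Mock) and 604 to 636 (LMO2), and no analysed spot was saturated. Accessions were matched to RefSeq (GRCm38.p6), which named 26550 of 39378 probes (67.4%). The design was annotated on another build, so only promoter coordinates are given. limma 3.58.1 in R 4.3.3 (lmFit, eBayes) compared the 4 arrays with 2 residual degrees of freedom, and, for the parental comparison, all 8. Both fits were tested on simulated data. With 2 arrays against 2, an exact permutation test cannot go below p = 0.333. Replicate numbers did not pair the arrays (correlation of the replicate differences 0.037).

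Genes were named by rule: those the study names, the 15 largest rises and falls above background on all 4 arrays, the 10 largest bounds each way, and the 3 largest called rises and falls of each list with its uncalled defining members. Some genes that the rule names are not reported here. Other genes were chosen after their values were seen. The comparison, its rule and the gene lists were chosen with earlier results of these data known. Alternatives were scaling, background correction, filters, model and leaving out each array.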

Additional observations from a re-analysis of the deposited data

How the results depend on the processing

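Of the 175 genes examined, 146 kept direction and call under every alternative run. The 14553 calls became 14563 with the deposited log2 values, of which 14511 were shared, and 13484 with the replicate number as a replicate block, with 13046 shared. Without 1 array, 5212 to 5542 probes were called higher and 6297 to 7004 lower. Median scaling gave 4089 and 12634 calls and 1120 falls of 2-fold or more. The planned normexp correction of the mean signal was not run, since the files used hold no mean signal. Normexp on the median signal, chosen after seeing the data, adds an offset that compresses dim probes and gave 789 rises and 248 falls of 2-fold or more, and 53 and 0 of 10-fold or more (208 and 40 otherwise). With probes above background on all 4 arrays, 83 and 11 passed 10-fold. With no filter, 5216 probes were called lower.

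Notch1 turned to −0.18 with median scaling, −0.07 with quantile normalization, and ranged from −0.10 to 0.17 when 1 array was left out (−0.09 and −0.10 without replicate 1 of Mock or LMO2). Quantile normalization turned Ldb1 to 0.05 and Coro1a to 0.16. The median of their probes turned Gp1bb to 0.08 and Cxcl12 to 0.16, and normexp turned Col3a1 to 0.02. The difference from the parental lines turned with median scaling for Tcf3 (0.03), Il1r2 (0.07), Gadd45g (0.01), Oas2 (0.05), Bmp4 (0.05) and Acta2 (0.05).

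Median changes of lists, here relative to all genes, stayed within 0.16 under every alternative for 11 of 23 lists. Normexp lowered them to 0.34 (CD3 and T-cell signalling), 1.28 (NK), 0.31 (neutrophil), 0.58 (monocyte), 0.29 (erythroid), 0.56 (cytokine receptors), 1.14 (chemokines), 0.25 (BCL2), 1.29 (interferon), 0.83 (AP-1) and 0.25 (TGF-β). With no filter they were 0.23 (CD3), 1.68 (NK), 0.38 (neutrophil), 0.51 (monocyte), 0.15 (B lineage), 0.22 (erythroid), 1.22 (chemokines), 0.22 (BCL2) and 0.95 (AP-1). With probes above background on all 4 arrays they were 0.35 (CD3), 1.75 (NK), 0.42 (erythroid), 0.57 (cytokine receptors) and 1.77 (chemokines). With quantile normalization they were 2.02 (NK), 0.45 (neutrophil) and 0.34 (TGF-β). Leaving out 1 array gave 2.05 to 2.31 (NK and interferon: 2.06 to 2.31) and 1.78 to 2.01 (chemokines). No list median changed sign in these cases. The cause was not tested beyond what each setting does by construction. The number of arrays and signals near background limit what small changes of dim genes can show.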
